A study of Mus musculus with 8 samples.

Results

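Mitochondrial ribosomal proteins were examined in mouse bone marrow-derived macrophages grown with or without serine and glycine. They were taken as all rows of the gene table whose symbol begins with Mrps or Mrpl followed by a number, which gave 78 of 17492 genes: 29 named for the small subunit and 49 for the large subunit. The macrophages were of strain C57BL/6. In 4 libraries (control) they had normal medium, and in 4 libraries (serine/glycine-free) the medium lacked both amino acids. The labels state neither the duration of the treatment nor whether replicates came from separate animals or cultures, so the p-values measure the spread between these libraries, which may be technical. RNA was total RNA captured with oligo-dT beads, which select polyadenylated transcripts.

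The mitochondrial ribosome translates the proteins encoded by mitochondrial DNA, which in mammals are subunits of the respiratory chain and ATP synthase. Its RNAs come from the mitochondrial genome, but all of its proteins are encoded in the nucleus, made in the cytosol and imported. The small subunit holds the mRNA and reads its codons, and the large subunit forms peptide bonds and guides the new chain into the inner membrane. Serine and glycine feed folate-dependent one-carbon metabolism, much of which runs inside mitochondria.

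All 78 genes passed the filter on low counts. Their transcripts moved little: the log2 change (serine/glycine-free over control, from edgeR) ran from -0.12 for Mrpl3 to 0.23 for Mrps36, that is, from 0.917-fold to 1.17-fold. The changes had an SD of 0.0834 among the 78 genes, against 0.246 among the 11700 genes tested. With an adjusted p under 0.05 in edgeR's quasi-likelihood test over all tested genes, 14 of the 78 rose, 1 fell and 63 did not pass. Of all tested genes, 33.2% passed in either direction, 15.9% were higher and 17.3% were lower. The 17.9% of mitochondrial ribosomal protein genes that rose is near that background, and the 1.28% that fell is below it. That background is not matched for transcript length: of tested genes of 500 to 1000 bases, 6.71% were lower. The median log2 change was 0.057 over the 78 genes and 0.0074 over all tested genes, and 60 of the 78 had a positive sign. In bulk RNA, fewer cells of a type and less RNA per cell cannot be told apart.

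**Figure D1:**
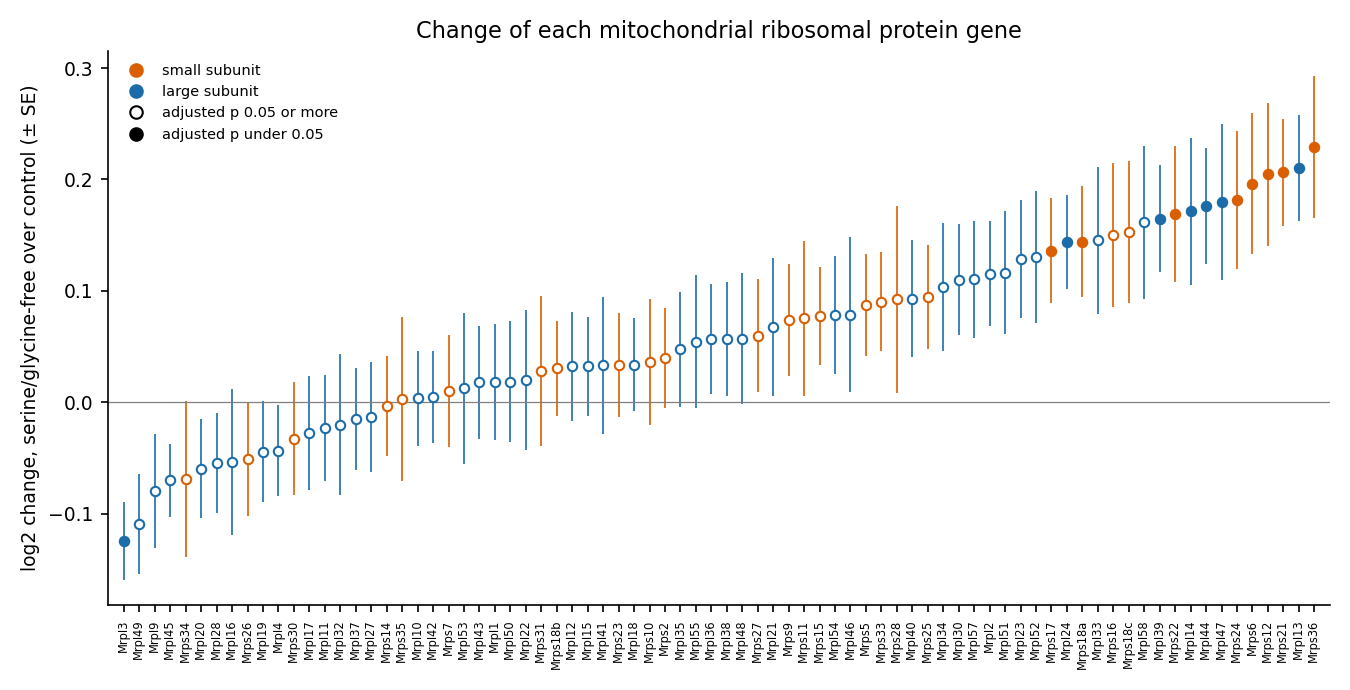
Fitted log2 change (vertical axis, serine/glycine-free over control) of each of the 78 mitochondrial ribosomal protein genes, ranked from lowest to highest, with bars for the standard error (edgeR, 4 against 4 libraries; small subunit orange, large subunit blue). Filled points passed at an adjusted p under 0.05: Mrpl3 at the far left and 14 genes (8 small-subunit, 6 large-subunit) toward the right, all between -0.12 and 0.23.

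Many of these genes lie head to head with another gene, so that the same short stretch of DNA separates the start sites of both. Among the 69 genes with an entry in the RefSeq promoter table (GRCm38.p6), 25 (36.2%) had a tested neighbour on the opposite strand whose start site lay within 1000 bases, against 13.1% of the 9428 tested genes in that table. For 2 pairs the stretch between the start sites is printed 5′ to 3′ on the strand of the first-named gene, limited to bases outside every GENCODE M21 exon and every RefSeq gene. Capitals mark matches, on either strand, to the SP1 letters GGGCGG or to CCAAT. The pair Mrps11 and Mrpl46, the only pair in which both genes encode mitochondrial ribosomal proteins, is shown with 29 of its 41 bases, those next to Mrpl46 (chr7:78783090-78783118, plus strand). The stretch of Mrps12 and the mitochondrial seryl-tRNA synthetase gene Sars2 is shown because Mrps12 rose, with 135 of its 146 bases, those next to Mrps12 (chr7:28741822-28741956, minus strand).
Mrps11–Mrpl46: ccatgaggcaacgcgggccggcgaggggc
Mrps12–Sars2: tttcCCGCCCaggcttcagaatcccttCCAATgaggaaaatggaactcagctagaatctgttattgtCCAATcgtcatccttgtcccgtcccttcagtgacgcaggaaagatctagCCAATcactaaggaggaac

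In each of the 24 pairs, at most 1 of the genes passed the test, so no pair had both genes past the threshold in the same direction. Of the 25 family genes in pairs 3 rose, and of the 23 neighbours outside the family 3 passed. Of all tested genes, 15.9% were higher and 17.3% lower, or 33.2% in either direction. How often both genes passed in other head-to-head pairs was not computed, so no conclusion is drawn from the absence of such pairs here. Mrps12 rose by 0.20 (log2) while Sars2 stood at 11.9 ± 1.04 CPM in control and 11.8 ± 0.854 in serine/glycine-free libraries (SD, n = 4; log2 change -0.01). Twnk, the mitochondrial DNA helicase, fell from 14.9 ± 0.555 to 12.2 ± 0.551 CPM (log2 change -0.29), whereas Mrpl43 had a log2 change of 0.02. Mrpl43 and Twnk also share 33.4% of the exon bases of Mrpl43, and the counting strand is not given in the sources used here, so their reads may not be fully separated. Klc4, a kinesin light chain, rose by 0.30 (log2; edgeR adjusted p = 2.26e-06) beside a log2 change of 0.12 for Mrpl2. Pnpla7, a lysophospholipase whose start lies 935 bases from that of Mrpl41, rose from 75.2 ± 1.13 to 93.0 ± 2.85 CPM (log2 change 0.31, edgeR adjusted p = 9.06e-10), while Mrpl41 had a log2 change of 0.03. The log2 ratio of the 2 genes of a pair was compared between groups for each of the 24 pairs by an exact two-sided permutation test. For the pairs Mrps12 and Sars2, Mrpl43 and Twnk, Mrpl30 and Mitd1, and Mrpl41 and Pnpla7 the exact permutation test gave p = 0.0286. That is the smallest value that 4 against 4 libraries allow. After Benjamini-Hochberg adjustment the smallest value was 0.171. With this floor, an adjusted value under 0.05 would need many of the 24 pairs at the floor together. The adjusted test therefore could not decide whether the genes of a single pair moved apart.

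Promoter letters were counted on both strands in the windows of the RefSeq table, from 250 bases before to 50 bases after each start site. The ETS-family letters CCGGAAG, bound by the mitochondrial gene regulator GABP among others, stood in the promoters of 26 of the 69 genes (37.7%), against 21.2% of tested genes and 9.93% of all genes in the table. The YY1 letters AAGATGGC, which can overlap the ETS letters by AAG, stood in 12 (17.4%), against 5.59% and 3.19%. The SP1 letters GGGCGG stood in 49.3% of the 69 genes, below the 68.6% of tested genes but above the 38.2% of the table. The consensus letters of NRF1, a regulator of nuclear genes for mitochondrial proteins, were in 3 (4.35%, against 2.48% and 1.07%). TATAAA was in 5 (7.25%, against 8.47% and 15.7%), and CCAAT in 27 (39.1%, against 43.5% and 41.1%). The median log2 change was 0.079 for the 26 genes with the ETS letters and 0.047 for the 43 without. Of the former 4 rose and 1 fell, and of the latter 9 rose, beside 15.9% of all tested genes higher and 17.3% lower. Medians with and without the other letters were 0.078 and 0.036 for SP1 and 0.079 and 0.056 for TATAAA. For YY1 they were 0.052 and 0.068, for CCAAT 0.034 and 0.072, and for NRF1 -0.02 (3 genes) and 0.058. None of these differences was tested.

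Transcript levels per length spanned a wide range within each subunit in both media. In deposited TPM, small-subunit genes in control ran from 11.95 ± 0.316 (Mrps25) and 17.7 ± 0.564 (Mrps31) to 118 ± 4.13 (Mrps15) and 218 ± 21.2 (Mrps21) (mean ± SD, n = 4), with a median of 55.5. Large-subunit genes ran from 10.1 ± 0.643 (Mrpl17) and 13.2 ± 0.306 (Mrpl35) to 177 ± 5.83 (Mrpl52) and 191 ± 14.5 (Mrpl23), with a median of 56.2. Although mature subunits are thought to hold a single copy of most of these proteins, the highest and lowest TPM differed 18.2-fold in the small and 18.8-fold in the large subunit. The changes without serine and glycine, at most 1.17-fold, were small beside that range. TPM of the shortest and longest genes depends on the authors' effective length. In counts the extremes of each subunit lay close together in control: Mrps25 at 39.0 and Mrps21 at 38.1 CPM, and Mrpl17 at 36.7 and Mrpl23 at 46.1 CPM. Their effective lengths were 5927 and 315 bases, and 6563 and 439 bases. The TPM gap between these extremes thus lies mostly in the length by which counts are divided.

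**Figure D2:**
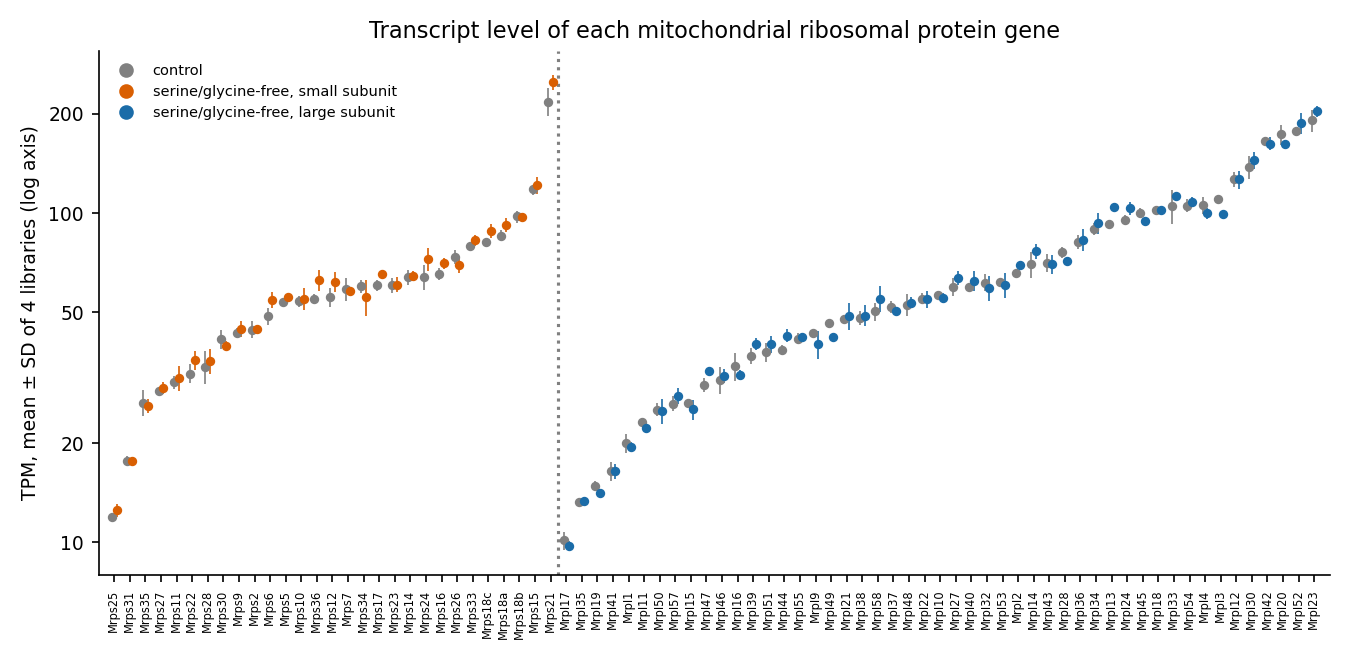
Deposited TPM (log axis) of every mitochondrial ribosomal protein gene, ordered by control level within the small (left) and large (right) subunit, as means with bars for the SD of 4 libraries (control grey, serine/glycine-free orange or blue). The spread between genes, 18.2-fold in the small and 18.8-fold in the large subunit, is far wider than the distance between the groups. TPM is divided by effective length, and the extremes of each subunit differ much less in counts.

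In the small subunit, 8 of 29 genes rose and none of the 29 fell (edgeR; none had an unadjusted p under 0.05 in the lower direction, and DESeq2 and limma-voom also called none lower). DESeq2 called 3 higher, and edgeR with the trend of change on transcript length removed called 1 higher and 1 lower. The 8 genes are 27.6% of the subunit, beside 15.9% of all tested genes. Of tested genes with effective transcript lengths of 500 to 1000 bases, 25.2% were higher, and the median length in the small subunit was 904 bases. The median log2 change was 0.0775, with a positive sign in 25 of 29. The 8 were Mrps36, Mrps21, Mrps12, Mrps6, Mrps24, Mrps22, Mrps18a and Mrps17. Of them, 5 were counted as homologs of bacterial small-subunit proteins (Mrps21, Mrps12, Mrps6, Mrps24 and Mrps17), and Mrps22 and Mrps18a as specific to mitochondria. Mrps18a is, however, a paralog of Mrps18c, which was counted as a bacterial homolog.

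Mrps12 (Entrez 24030, chr7:28739641-28741821, GRCm38.p6) encodes the homolog of bacterial S12, which lines the decoding centre. Its level was 15.5, 16.8, 17.7 and 16.4 CPM, counts scaled to library size, in control replicates 1 to 4 and 17.2, 19.8, 19.2 and 20.5 in serine/glycine-free replicates 1 to 4. The groups overlapped, since serine/glycine-free replicate 1 lay below control replicate 3. The mean went from 16.6 ± 0.882 to 19.2 ± 1.40 CPM (SD, n = 4), a log2 change of 0.20 (SE 0.0641, edgeR adjusted p = 0.011), and without control replicate 1 the adjusted p was 0.0509.

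Mrps21 (chr3:95862634-95871514), the homolog of bacterial S21 and the small-subunit gene with the highest TPM, stood at 39.0, 35.2, 37.2 and 41.0 CPM in control and at 45.6, 40.6, 44.4 and 45.3 CPM without serine and glycine. Only serine/glycine-free replicate 2 lay inside the control range. The log2 change was 0.21 (SE 0.0481, edgeR adjusted p = 0.000675). Mrps6 (chr16:92058336-92112227), the homolog of bacterial S6, was 15.7, 17.4, 16.9 and 17.67 CPM in control and 17.71, 19.4, 19.7 and 20.8 CPM in serine/glycine-free libraries. It is the only small-subunit gene whose groups did not overlap in the higher direction, a pattern held by 14.5% of all tested genes. Its log2 change was 0.20 (edgeR adjusted p = 0.0131), and it did not pass without control replicate 1 or without serine/glycine-free replicate 4 (adjusted p up to 0.0619).

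Mrps24, the homolog of bacterial S3, rose by 0.18 (log2; from 23.9 ± 2.26 to 27.2 ± 2.05 CPM, edgeR adjusted p = 0.0227), but lost the call in 4 of the 8 fits that each left out 1 library. Mrps22 rose by 0.17 and lost it in 5, and Mrps17 rose by 0.14 and lost it in 4. Mrps24 shares 15.4% and Mrps6 10.4% of exon bases with another tested gene.

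Mrps36 had the largest rise of the 78 genes, although structural work has since assigned its product to the oxoglutarate dehydrogenase complex rather than to the ribosome. Mrps36 (chr13:100735940-100744659) was 17.2, 17.8, 16.7 and 16.7 CPM in control and 19.96, 17.5, 21.2 and 21.4 CPM in serine/glycine-free libraries. Serine/glycine-free replicate 2 lay within the control range and the other three above it. The log2 change was 0.23 (SE 0.0639, edgeR adjusted p = 0.00428), and the call held in all 8 fits that left out 1 library.

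The paralogs Mrps18a, Mrps18b and Mrps18c occupy different places in the ribosome: Mrps18b and Mrps18c belong to the small subunit, while the Mrps18a protein, like that of Mrps30, sits in the large subunit. Mrps18a rose from 33.6 ± 1.41 to 37.2 ± 2.65 CPM (log2 change 0.14, edgeR adjusted p = 0.0224), and did not pass without control replicate 1, control replicate 3 or serine/glycine-free replicate 4 (adjusted p up to 0.138). The change of Mrps18c was 0.15 (log2; edgeR adjusted p = 0.06), that of Mrps18b 0.03 (adjusted p = 0.634) and that of Mrps30 -0.03 (adjusted p = 0.669). With genes assigned by structure instead of symbol, 6 small-subunit and 7 large-subunit genes rose.

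In the large subunit, 6 of 49 genes rose (Mrpl13, Mrpl47, Mrpl44, Mrpl14, Mrpl39 and Mrpl24) and Mrpl3 fell. These shares were 12.2% and 2.04%, against 15.9% and 17.3% of all tested genes. The median log2 change was 0.0338, with a positive sign in 35 of 49, but it was -0.0049 with the trend of change on transcript length removed. Groups did not overlap for 8 of the 49 genes of this subunit: Mrpl2, Mrpl24, Mrpl39, Mrpl44, Mrpl47 and Mrpl13 were higher in every serine/glycine-free library, and Mrpl3 and Mrpl49 were lower. Of all tested genes, 14.5% had no overlap in the higher direction and 16.2% in the lower, so neither count stands above the background.

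Mrpl13 (Entrez 68537, chr15:55534095-55557312), the homolog of bacterial L13, had the smallest adjusted p of the 78 genes. Its level was 33.8, 32.7, 30.6 and 32.7 CPM in control and 36.9, 35.9, 37.7 and 39.7 CPM without serine and glycine. Every serine/glycine-free library lay above every control library. The mean went from 32.5 ± 1.32 to 37.6 ± 1.62 CPM (SD, n = 4), a log2 change of 0.21 (SE 0.0478, edgeR adjusted p = 0.00048).

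Mrpl44 (chr1:79776018-79781445), whose product has a ribonuclease III-like fold, was 27.3, 26.6, 25.7 and 28.2 CPM in control and 28.4, 30.1, 31.2 and 32.2 CPM in serine/glycine-free libraries. Its log2 change was 0.18 (SE 0.052, edgeR adjusted p = 0.00697), and the nearest libraries of the groups, control replicate 4 and serine/glycine-free replicate 1, were almost level. Mrpl39 (chr16:84718281-84735244), which has no bacterial ribosomal counterpart, was 34.3, 35.4, 32.9 and 31.3 CPM in control and 35.97, 37.1, 38.8 and 38.2 CPM without serine and glycine. The log2 change was 0.16 (SE 0.0478, edgeR adjusted p = 0.00595). Its estimated counts were not whole numbers in 4 of the 8 libraries.

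Mrpl24 and Mrpl47 are homologs of bacterial L24 and L29, which lie near the exit of the peptide tunnel. Mrpl24 rose from 49.1 ± 1.42 to 54.3 ± 2.64 CPM (log2 change 0.14, edgeR adjusted p = 0.00621), with estimated counts that were not whole numbers in all 8 libraries, so part of its reads was divided between genes. Mrpl47 rose from 11.97 ± 0.601 to 13.6 ± 0.0786 CPM (log2 change 0.18, adjusted p = 0.0436), and Mrpl14, the homolog of bacterial L14 at the subunit interface, from 17.3 ± 1.74 to 19.5 ± 1.17 CPM (log2 change 0.17, adjusted p = 0.042). The call of Mrpl47 was lost in 7 and that of Mrpl14 in 6 of the 8 fits that left out 1 library. Mrpl24 shares 26.3%, Mrpl47 24.2% and Mrpl14 11.2% of exon bases with other tested genes.

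Mrpl3 (chr9:105053268-105077466), the homolog of bacterial L3 next to the peptidyl transferase centre, was the only gene of the family that fell. It stood at 86.5, 83.9, 81.2 and 84.5 CPM in control and at 74.9, 76.9, 79.0 and 77.4 CPM in serine/glycine-free libraries, with no overlap. The mean went from 84.0 ± 2.17 to 77.1 ± 1.70 CPM, a log2 change of -0.12 (SE 0.0348, edgeR adjusted p = 0.00426). Mrpl12, the stalk protein that also has been described as a partner of the mitochondrial RNA polymerase, was 55.9 ± 3.03 CPM in control and 57.2 ± 4.68 CPM without serine and glycine (log2 change 0.03, adjusted p = 0.664). Mrpl58, an integral large-subunit protein derived from a peptidyl-tRNA hydrolase, had a log2 change of 0.16 (adjusted p = 0.0701). The genes with the highest TPM, Mrpl23 and Mrpl52, had log2 changes of 0.13 each (adjusted p = 0.0653 and 0.0879), and those with the lowest, Mrpl17 and Mrpl35, had -0.03 and 0.05.

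Of the 15 genes that passed, 7 kept the call whichever library was left out: Mrps36, Mrps21, Mrpl13, Mrpl24, Mrpl39 and Mrpl44 in the higher direction and Mrpl3 in the lower. The other 8 each lost it in at least 1 such fit. Across the family the standard error of a log2 change was 0.0329 to 0.084, so that changes of this size lie near what 4 against 4 libraries resolve.

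Summed over genes, the small subunit took 1727 to 1791 TPM per control library and 1819 to 1887 TPM per serine/glycine-free library, without overlap, and the mean was 5.1% higher. Within that sum, Mrps21 alone went from a mean of 218 to 250 TPM. The sum follows the symbols, so it also holds Mrps36, Mrps18a and Mrps30, whose proteins are placed outside the small subunit. The large subunit took 3332 to 3424 TPM in control and 3378 to 3454 TPM without serine and glycine, which overlapped, with a mean 1.31% higher. By counts the small-subunit sums were 817 to 858 CPM and 860 to 929 CPM. Single libraries stood apart within their group: the median small-subunit gene deviated from its mean by log2 -0.0884 in control replicate 3 and by 0.12 in serine/glycine-free replicate 4. In serine/glycine-free replicate 4, 28 of 29 small-subunit and 40 of 49 large-subunit genes were above their mean over all libraries. The median of serine/glycine-free replicate 2 was -0.0259 for the small subunit, inside the range of the controls (-0.0884 to -0.0234).

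**Figure D3:**
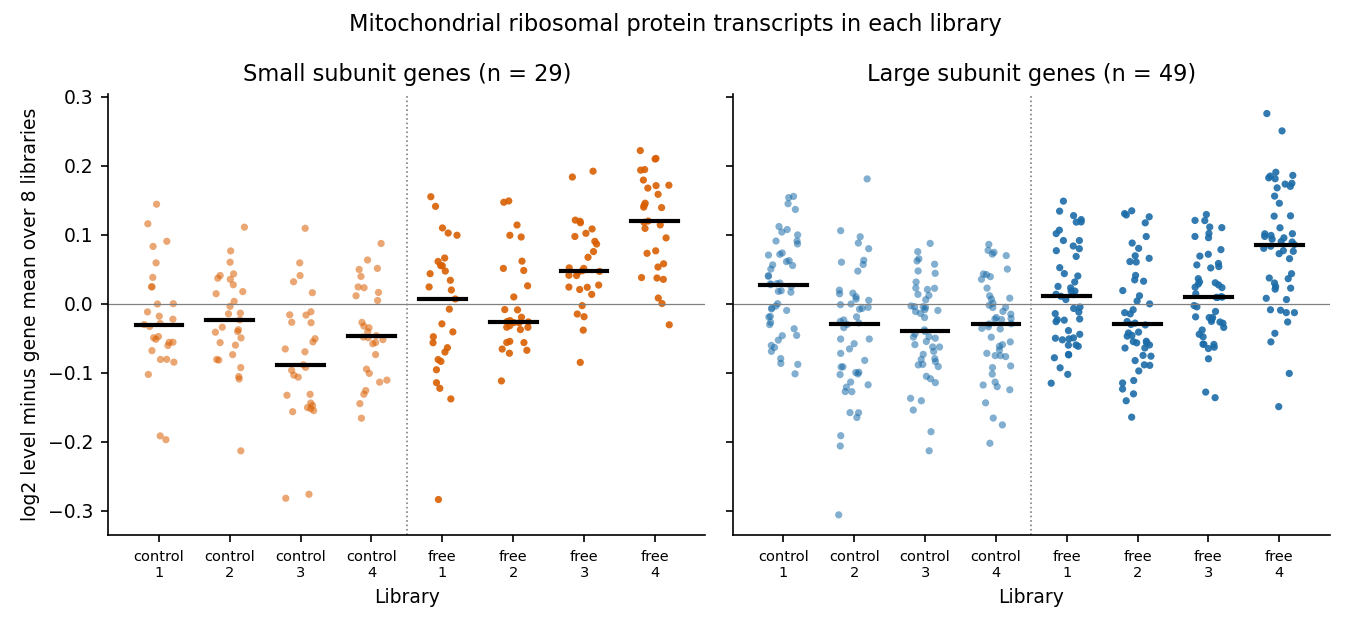
Deviation of each gene (points) from its own mean over the 8 libraries, in log2 CPM, by library (control 1 to 4, serine/glycine-free 1 to 4) for the small (left) and large (right) subunit, with black bars at the medians. The small-subunit median is highest in serine/glycine-free replicate 4 (0.12) and lowest in control replicate 3 (-0.0884), and that of serine/glycine-free replicate 2 (-0.0259) lies among the controls.

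Mitochondrial ribosomal protein genes have short transcripts, and the change without serine and glycine varied with length. Effective length, the estimated count over FPKM, had a median of 913 bases in the family and 2716 bases over all tested genes. The log2 change and log2 length had a Pearson correlation of -0.417 (Spearman -0.443) over the 78 genes, -0.436 (-0.55) in the small subunit, -0.396 (-0.413) in the large subunit and -0.165 (-0.248) over all 11700 tested genes. These are descriptions over genes that share the same 8 libraries. The fitted slope was -0.0375 log2 units per doubling of length in the family and -0.0408 over all tested genes.

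The family and all tested genes of like length had similar medians. Up to 500 bases, the median log2 change was 0.138 for 10 mitochondrial ribosomal protein genes and 0.121 for 232 tested genes. From 500 to 1000 bases it was 0.0677 for 35 and 0.0756 for 834, and from 1000 to 2000 bases 0.0279 for 23 and 0.0386 for 2804. Over 2000 bases it was 0.0254 for 10 and -0.0154 for 7830. The shares of all tested genes that were higher were 26.7%, 25.2%, 19.7% and 13.2% along these bands, and the family's counts were 2 of 10, 8 of 35, 4 of 23 and 0 of 10. The shares that were lower were 1.72%, 6.71%, 10.5% and 21.4%, and the family's counts were 0 of 10, 0 of 35, 1 of 23 and 0 of 10. Of these last 10 genes, 3 had an unadjusted p under 0.05 in edgeR, and DESeq2 and limma-voom also called none. The length slope over all genes within each library, against the mean of the libraries, was 0.0029, 0.0145, 0.0379 and 0.0226 in control replicates 1 to 4 and -0.0073, 0.0016, -0.0208 and -0.0514 in serine/glycine-free replicates 1 to 4. The groups did not overlap, and serine/glycine-free replicate 4 lay farthest out.

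**Figure D4:**
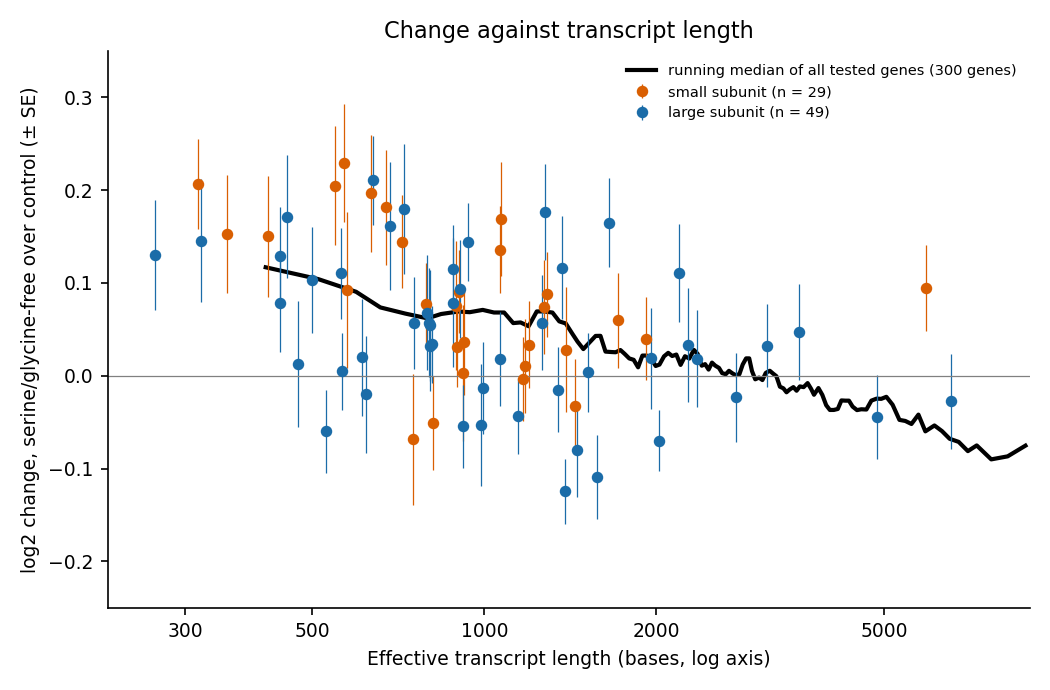
Fitted log2 change with its standard error (vertical axis) against effective transcript length in bases (log axis) for small-subunit (orange) and large-subunit (blue) genes, with the running median of all tested genes as a black line. Both the points and the line are higher for short transcripts: the median is 0.121 for tested genes up to 500 bases and -0.0154 for those over 2000 bases.

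When the trend on length was removed from each library before the test, a setting chosen with these data known, most of the rises no longer passed. In that fit 4 of the 78 genes were higher (Mrps25, Mrpl39, Mrpl44 and Mrpl13) and 7 lower (Mrpl3, Mrpl20, Mrpl49, Mrps26, Mrpl28, Mrpl4 and Mrpl45), against 15.7% and 17.2% of all tested genes. The small subunit had 1 higher and 1 lower, and the large subunit 3 higher and 6 lower. Medians were 0.0254 in the small subunit, -0.0049 in the large subunit and 0.0022 over all tested genes. Mrpl13, Mrpl39, Mrpl44 and Mrpl3 passed in the same direction in both fits. The log2 change of Mrpl3 was -0.17 with the trend removed (edgeR adjusted p = 1.97e-05), that of Mrpl13 0.13 (adjusted p = 0.0225), that of Mrpl39 0.14 (adjusted p = 0.015) and that of Mrpl44 0.13 (adjusted p = 0.0389).

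The call of Mrpl3 with the trend removed held in all 8 fits that left out 1 library, as did those of Mrpl20 and Mrpl49. Mrpl13 lost its call without control replicate 3 (adjusted p = 0.0848), Mrps25 without serine/glycine-free replicate 4 (adjusted p = 0.118), Mrpl39 in 2 fits and Mrpl44 in 6. Mrps25 shares 69.8% of its exon bases with Nr2c2, and its estimated counts were not whole in any library. The short transcripts moved most between the fits: Mrps21, with an effective length of 315 bases, went from 0.21 to 0.08 (adjusted p = 0.137), and Mrps12, with 547 bases, from 0.20 to 0.11 (adjusted p = 0.185).

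**Figure D5:**
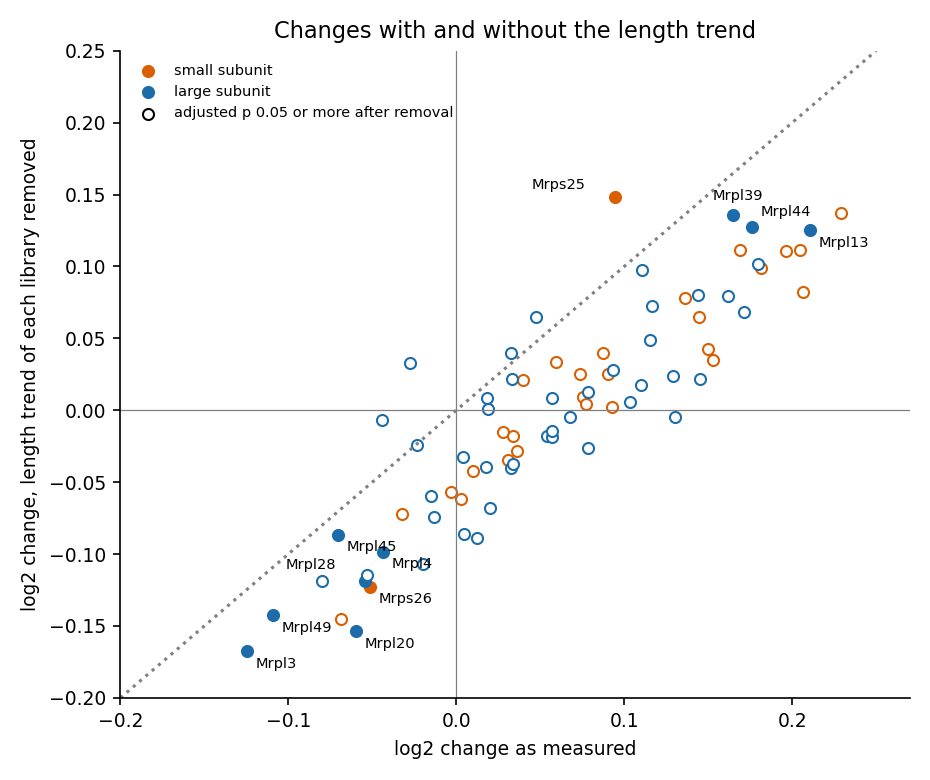
Log2 change of each mitochondrial ribosomal protein gene with the length trend removed (vertical axis) against the change as measured (horizontal axis), small subunit orange and large subunit blue, with equality as a dotted line. Filled, named points passed with the trend removed, and most genes lie below the line; Mrpl13, Mrpl39 and Mrpl44 passed in the higher direction and Mrpl3 in the lower direction in both fits.

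Genes counted as bacterial homologs and genes counted as specific to mitochondria had the same median. Of 45 genes in the first set 9 rose and 1 fell, and of 31 in the second 4 rose. The median log2 change was 0.057 in each set, and 15.9% of all tested genes were higher. Mrpl55 and Mrps36 were put in neither set. Mrps18a and Mrps18b were counted as specific to mitochondria, although their paralog Mrps18c was counted as a bacterial homolog. The correlation of change with log2 length was -0.564 in the first set and -0.0844 in the second (Pearson, as a description). The difference between the sets was not tested.

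Other proteins of the mitochondrial ribosome go by other symbols, and 1 of these 5 genes rose. Gadd45gip1, a large-subunit protein also known as CRIF1, went from 24.9 ± 1.10 to 29.2 ± 2.95 CPM (log2 change 0.23, edgeR adjusted p = 0.00237), with estimated counts not whole in any library. With the length trend removed its log2 change was 0.20 (edgeR adjusted p = 0.00313). Aurkaip1, Chchd1, Dap3 and Ptcd3, all of the small subunit, had log2 changes of 0.03 to 0.10 that did not pass.

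Among 37 genes of mitochondrial translation (initiation, elongation and release factors, aminoacyl-tRNA synthetases and mRNA-binding proteins), 2 rose, 1 fell and 34 did not pass, with a median log2 change of 0.0166. The shares higher and lower were 5.41% and 2.7%, against 15.9% and 17.3% of all tested genes. Slirp, which stabilises mitochondrial mRNAs with Lrpprc, rose from 23.6 ± 1.202 to 26.9 ± 1.13 CPM (log2 change 0.19, edgeR adjusted p = 0.00582). Mtfmt, which formylates the initiator methionyl-tRNA with a one-carbon unit from folate, rose from 11.6 ± 1.05 to 13.3 ± 0.509 CPM (log2 change 0.21, adjusted p = 0.0291). The mitochondrial tryptophanyl-tRNA synthetase Wars2 fell from 12.6 ± 0.996 to 10.5 ± 0.608 CPM (log2 change -0.26, adjusted p = 0.00702). The elongation factors Tufm, Tsfm and Gfm1 had log2 changes of 0.00, 0.16 and 0.01 and did not pass. With the length trend removed, Slirp, with an effective length of 272 bases, stood at 0.05 (adjusted p = 0.454), while Wars2 and Mtfmt still passed.

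Among 28 genes of mitochondrial ribosome assembly and ribosomal RNA modification, 2 rose and 2 fell, with a median log2 change of 0.0341. That is 7.14% in each direction, against 15.9% higher and 17.3% lower among all tested genes. Afg3l2, a subunit of the inner-membrane protease that matures Mrpl32, rose from 58.2 ± 2.91 to 65.2 ± 1.96 CPM (log2 change 0.16, edgeR adjusted p = 0.00103). Its substrate Mrpl32 had a log2 change of -0.02. The RNA helicase Ddx28, named here because it is the other gene that rose, had a log2 change of 0.16 (adjusted p = 0.0322). Ptcd1 fell by 0.21 (log2; adjusted p = 0.00143), with estimated counts not whole in any library, and the pseudouridine synthase Rpusd4 fell by 0.16 (adjusted p = 0.0182).

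Of 14 genes of mitochondrial transcription and RNA processing, 1 rose and 1 fell, or 7.14% in each direction, against 15.9% higher and 17.3% lower among all tested genes. The 2 genes belong to the enzymes that cut out mitochondrial tRNAs. Hsd17b10, a subunit of mitochondrial RNase P, rose from 31.8 ± 2.25 to 37.6 ± 1.62 CPM (log2 change 0.24, edgeR adjusted p = 0.000161). Elac2, which cleaves the other end of the tRNA, fell from 48.5 ± 1.95 to 42.6 ± 1.11 CPM (log2 change -0.19, adjusted p = 0.000501). Trmt10c, another RNase P subunit, stood at 0.10 (log2; adjusted p = 0.148). The polymerase Polrmt and the factor Tfam were at 0.00 each. Hsd17b10 and Elac2 also passed with the length trend removed, at 0.17 and -0.18.

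The cytosolic ribosomal proteins and the nuclear subunits of oxidative phosphorylation, families of still shorter transcripts, gave these values in the same fit. The mitochondrial ribosomal proteins had a median length of 913 bases, so the measured changes of the families are not matched for length. Of 75 cytosolic ribosomal protein genes 7 rose and 4 fell, with a median log2 change of 0.0374 and a median length of 578 bases. Of 77 tested oxidative phosphorylation genes 17 rose and 2 fell, with a median of 0.0662 and a median length of 534 bases. The shares that rose were 9.33% and 22.1%, against 15.9% of all tested genes. The shares that fell were 5.33% and 2.6%, against 17.3%. With the length trend removed, 2 cytosolic ribosomal protein genes were higher and 30 lower, and 2 oxidative phosphorylation genes were higher and 9 lower, beside 4 and 7 of the mitochondrial ribosomal proteins. The lower shares were 40.0%, 11.7% and 8.97%, against 17.2% of all tested genes. The higher shares were 2.67%, 2.6% and 5.13%, against 15.7%. The medians in that fit were -0.0483, -0.0206 and 0.005. Differences between the families were not tested.

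Libraries held 17565291 to 18201599 estimated counts, so 3 counts, the limit that a count of 0 allows, were 0.165 to 0.171 CPM, and mitochondrial ribosomal protein genes lay at 9.03 to 115.3 CPM in single libraries. All 7 macrophage markers listed were tested, and their summed level was 18400 to 18900 CPM in control and 18400 to 18700 CPM without serine and glycine. Each of the 7 passed the test: Csf1r (log2 change 0.41), Cd68 (0.29), Mertk (0.28) and Lyz2 (0.13) rose, and Itgam (-0.61), Adgre1 (-0.25) and Fcgr1 (-0.14) fell. Markers of other cells were low, though some also moved with the groups. The 7 neutrophil markers summed to 0.772 to 1.17 CPM in control and 2.05 to 2.28 CPM in serine/glycine-free libraries, and the 4 B cell markers, nearly all of it Cd79b, to 43.4 to 51.1 and 32.1 to 38.9 CPM. The T cell, dendritic cell, erythroid, fibroblast and mast cell lists each summed to at most 1.79 CPM in any library, and 0 of the listed markers found in the table were at 0 in all 8 libraries. The part of these marker changes in the values above was not tested.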

How the data were processed

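Gene-level tables for 8 mouse macrophage libraries (4 control, 4 serine/glycine-free) were used. The authors deposited RSEM expected counts, FPKM and TPM per gene; the tools BWA, Bowtie2 and RSEM and the build GRCm38.p6 are named per the submitters' processing notes, with versions and the counting strand not given in the sources used here. Because 8.28% of the expected counts were not whole (tolerance 1e-06), they were rounded. Genes were filtered with filterByExpr (minimum count 10, minimum total 15), scaled by TMM and tested with edgeR 4.0.16 (quasi-likelihood F test, robust, 6 residual degrees of freedom, R 4.3.3), with Benjamini-Hochberg adjustment over 11700 genes and a threshold of 0.05. CPM values use TMM-scaled library sizes, and levels between genes use the deposited TPM. Deviations by library used log2 of CPM plus 0.5. Effective length was the deposited count over the deposited FPKM, rescaled to bases. For the length alternative, a lowess trend (span 0.3) of each library's log2 deviation on log2 length entered the fit as offsets. Scripts were tested on simulated data. Alternatives were DESeq2 1.42.0, limma-voom (limma 3.58.1), other scalings and filters, a replicate block, removal of length or mean-expression trends, genes with counts that were not whole left out, and each library left out.

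Genes named with values were those preset for their role, up to 5 rises and 5 falls per subunit by size among those past the threshold, the 2 highest and 2 lowest TPM per subunit, genes past the threshold with the length trend removed, and per pathway list preset factors and the 3 smallest adjusted p-values. Genes beyond that rule (Mrps17, Mrps22, Mrpl24, Mrpl2, Mrpl32, Ddx28 and the head-to-head neighbours) were named after their values were seen, and the CCAAT letters were added after sequences were seen. The members and lists were chosen with earlier results of these data known. The limit that a count of 0 allows covers counting error only, while SDs and standard errors cover the spread between libraries. Gene positions (matched by Entrez ID), promoters and start sites are from RefSeq (GRCm38.p6), and shared exon bases are from GENCODE M21 of the same assembly, matched by symbol.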

Additional observations from a re-analysis of the deposited data

Results flagged for a closer look

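The summed level of the 49 large-subunit genes was 1760 CPM in control replicate 1, apart from the other controls, which began at 1690 CPM and lay close together. The gap was 0.971 of the group's range, above Dixon's 95% critical value for 4 samples. Of 54 groups of values examined in this way, this was the only one, and chance flags about 1 in 20.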

How the results depend on the processing

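The counts of genes past the threshold depended most on transcript length. For the small subunit, 8 genes were higher as reported, 3 with DESeq2, 2 at an adjusted p under 0.01 and 1 with the length trend removed, with or without the replicate block. Lower small-subunit genes numbered 0, then 1 with the length trend removed and 2 with the block as well. Higher large-subunit genes went from 6 to 3 and 2 under those settings, and lower ones from 1 to 6 and 6. The small-subunit median went from 0.0775 to 0.0254 and 0.0246, and the large-subunit median from 0.0338 to -0.0049 and -0.0054. The correlation of change with length over the family went from -0.417 to 0.04. Leaving out genes with counts that were not whole gave 8 higher small-subunit and 4 higher large-subunit genes. In the translation list, 2 higher genes became 1 with DESeq2, with the length trend removed, with the mean-expression trend removed or at an adjusted p under 0.01, and 0 with length and block together (4 at an unadjusted p under 0.05).

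Leaving out each library in turn gave 3 to 9 higher and 0 to 0 lower small-subunit genes, 4 to 11 higher and 1 to 3 lower large-subunit genes, and 1 to 3 higher and 1 to 1 lower translation genes. Small-subunit medians ran from 0.0547 to 0.0915 and large-subunit medians from 0.0289 to 0.0566. Higher small-subunit genes numbered 5 without control replicate 1, 4 without control replicate 3 and 3 without serine/glycine-free replicate 4. Higher large-subunit genes numbered 11 without serine/glycine-free replicate 2, and lower ones 2 without control replicate 4 and 3 without serine/glycine-free replicate 4. With the length trend removed and each library left out, the ranges were 0 to 2 higher and 0 to 2 lower in the small subunit and 1 to 3 higher and 3 to 6 lower in the large subunit.

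Replicate numbers did not pair the samples: same-numbered libraries correlated at -0.0878, 0.0486, 0.17 and -0.142. The replicate block gave 8 higher small-subunit and 6 higher large-subunit genes and moved no count of calls by over 1.5 times. Of the 14 higher genes 13 were shared, with Mrpl47 past the threshold only without the block (adjusted p = 0.0626 with it) and Mrpl23 only with it (adjusted p = 0.0255).

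The log2 change turned sign with the length trend removed, without and with the block, for Mrpl12 (-0.0403 and -0.0403), Mrpl17 (0.0329 and 0.0337), Mrpl52 (-0.0047 and -0.0045), Mrps18b (-0.0347 and -0.0344) and Mrps31 (-0.0149 and -0.0149), none of which passed as reported, and for Mrps31 with the mean-expression trend removed (-0.0077). It also turned in some fits without 1 library for Mrpl12 (-0.0218 to 0.0639), Mrpl17 (-0.0693 to 0.0058) and Mrps30 (-0.0784 to 0.0017). Apart from the length settings, which remove the trend by construction, the cause was not tested. RLE size factors, library size alone and limma-voom kept each of these counts within 1.5 times. Standard errors of 0.0329 to 0.084 (log2) set the size of change that 4 libraries a group could resolve.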
